A study of Mus musculus with 3 samples.

Results

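The genes described here are 9 antimicrobial genes of the Paneth cell, Lyz1, Defa17, Defa21, Defa22, Defa24, Defa30, Ang4, Mptx2 and Itln1, taken by symbol from the 32285 genes of the deposited single-cell count tables. All 9 symbols were found once. The tables hold mouse small intestinal organoids, epithelial cells grown as hollow bodies in a gel, in 3 groups with 1 library each. How many mice stood behind each library is not given in the sources used here. In the LApc and LApcL mice, on a C57BL/6 background, Lgr5-EGFP-IRES-CreERT2 drove a tamoxifen-dependent Cre in cells that express the stem cell gene Lgr5. LApc carried Apc fl/fl, so that the Cre was meant to delete Apc, a brake on Wnt signalling. LApcL carried Apc fl/fl and Lef1 fl/fl, so that Lef1, a transcription factor of the Wnt pathway, was targeted as well. The WT group was wild type. Tamoxifen was given at an age of 7 to 8 weeks as 2 doses of 2 mg, and cells were taken 21 days later for WT and LApcL and 29 days later for LApc. All organoids were at passage 3 and day 6 of culture. LApc and LApcL organoids had at first been passaged without growth factors, and neither the medium at passage 3 nor that of the WT organoids is given for these libraries, so genotype, mouse, day and medium cannot be told apart. With 1 library per genotype no test between genotypes was possible, and every interval below is a 95% interval of counting error only.

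Paneth cells sit at the base of small intestinal crypts beside the stem cells and secrete granules of antimicrobial protein into the crypt. Lysozyme, made from Lyz1, cuts the bacterial cell wall. The Defa genes encode alpha-defensins, short peptides that disrupt bacterial membranes and that in the mouse are cut from their precursors by the protease matrilysin, made from Mmp7. Ang4 is a secreted ribonuclease with bactericidal activity. Itln1 encodes intelectin, a lectin that binds microbial sugars and is also made by goblet cells, the mucus-secreting cells of the epithelium. Mptx2 encodes a mucosal pentraxin. Wnt signalling is known to favour Paneth cell maturation.

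A barcode marks 1 droplet, usually 1 cell, and a unique molecular identifier (UMI) marks 1 captured RNA molecule. Barcodes were used if they occurred in 1 library only, held at least 1000 UMIs and had at most 20% of their UMIs from mitochondrial genes. This kept 2567 of 11411 WT barcodes, 3272 of 10706 LApc barcodes and 3807 of 12068 LApcL barcodes, with medians of 8170, 24633 and 10268 UMIs. The libraries shared 3195 barcodes that occurred in all 3. Shared barcodes that passed the other limits numbered 2820, 2286 and 2403. They carried the endothelial gene Pecam1 at 945 to 1048 CPM (UMIs per 1e+06), against 1.04 to 1.56 CPM in the kept barcodes, and the epithelial gene Epcam at 24.7 to 163 CPM, against 1164 to 2080 CPM. Of the targeted genes, Lef1 was counted at 0.955 CPM for WT, 70.9 for LApc and 49.2 for LApcL, and Apc at 22.3, 88.1 and 94.6 CPM. Neither was lower in its targeted libraries than in WT, where Lef1 had 52 UMIs. The study describes Lef1 as not expressed in the normal intestine. Lef1 was lower in LApcL than in LApc, where it was not targeted. The study also reports that the deletion of Lef1 was checked in its organoids. The 3′ counts do not show whether the deleted part was lost.

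The alpha-defensin genes are near copies of each other, which limits how well their counts can be told apart. On GRCm38 the 5 Defa members lie within 0.710 Mb of chromosome 8 on the forward strand, from Defa21 (ENSMUSG00000074447, chr8:21025545-21026516) through Defa30 (ENSMUSG00000074444, chr8:21134642-21135598), Defa22 (ENSMUSG00000074443, chr8:21162277-21163249) and Defa17 (ENSMUSG00000060208, chr8:21655780-21656735) to Defa24 (ENSMUSG00000064213, chr8:21734494-21735471). Each has 2 exons. The last 105 coding bases before the stop codon, in the exon that 3′ libraries read, are shown here from the GENCODE vM21 transcripts, with capitals at the bases that differ from Defa24. They show that the members fall into 2 sequence groups.

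Defa24: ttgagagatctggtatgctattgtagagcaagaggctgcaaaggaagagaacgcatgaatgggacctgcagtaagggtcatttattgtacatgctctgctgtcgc

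Defa30: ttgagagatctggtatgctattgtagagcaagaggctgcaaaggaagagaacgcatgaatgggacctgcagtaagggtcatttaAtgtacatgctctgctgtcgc

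Defa17: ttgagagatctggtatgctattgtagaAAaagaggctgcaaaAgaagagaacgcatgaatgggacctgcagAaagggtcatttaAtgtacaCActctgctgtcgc

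Defa21: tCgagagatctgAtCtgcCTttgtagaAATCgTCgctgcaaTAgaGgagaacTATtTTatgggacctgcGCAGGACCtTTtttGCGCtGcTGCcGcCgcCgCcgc

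Defa22: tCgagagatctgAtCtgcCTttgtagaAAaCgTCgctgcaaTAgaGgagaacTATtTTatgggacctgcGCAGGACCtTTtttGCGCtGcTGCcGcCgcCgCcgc

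Defa30 differed from Defa24 at 1 of these bases and Defa17 at 7, whereas Defa21 and Defa22 differed at 41 and 40. Over the whole coding sequence, Defa21 and Defa22 were 99.3% identical, and Defa24 and Defa30 were 98.6% identical. Between the groups, Defa21 and Defa24 were 80.6% identical. Of the 50-base windows in the last 300 transcript bases, 64.5% of those of Defa21 also occurred in Defa22, and 25.1% of those of Defa24 occurred in Defa30. None of the windows of Defa21 occurred in Defa24. The share of windows found in a transcript of any other gene was 88.8% for Defa17, 64.5% for Defa21, 66.1% for Defa22, 27.5% for Defa24 and 41.8% for Defa30, so the split of reads within a group is uncertain. The other members were more distinct. The share was 21.9% for Lyz1 (ENSMUSG00000069515, chr10:117287797-117292868, reverse strand), which lies beside its paralog Lyz2, and 12.4% for Ang4 (ENSMUSG00000060615, chr14:51763878-51773590, reverse strand). It was 0 for Mptx2 (ENSMUSG00000079180, chr1:173274382-173277777, reverse strand) and for Itln1 (ENSMUSG00000038209, chr1:171518122-171535294, reverse strand).

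Promoter windows in the RefSeq table (GRCm38.p6, 250 bases before to 50 after the start) matched 7 of the 9 members, all but Defa17 and Defa24. The windows were searched on both strands for CTTTGA, the core of the motif that Tcf and Lef factors bind, whose reverse complement is TCAAAG. This 6-letter word occurred in 16.0% of the 32851 windows of all genes and in 3 of the 7 member windows, those of Defa21, Defa22 and Defa30. The bases before the start are shown for these 3 windows, with the word in capitals. Defa21 (chr8:21025295-21025544) and Defa22 (chr8:21162027-21162276) have the same letters, and Defa30 is at chr8:21134400-21134649, all on the forward strand.

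Defa21 and Defa22: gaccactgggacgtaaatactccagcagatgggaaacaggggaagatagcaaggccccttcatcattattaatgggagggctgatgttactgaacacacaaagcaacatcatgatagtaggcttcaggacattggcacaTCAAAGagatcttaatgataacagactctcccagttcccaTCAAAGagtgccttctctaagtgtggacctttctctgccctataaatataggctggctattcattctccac

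Defa30: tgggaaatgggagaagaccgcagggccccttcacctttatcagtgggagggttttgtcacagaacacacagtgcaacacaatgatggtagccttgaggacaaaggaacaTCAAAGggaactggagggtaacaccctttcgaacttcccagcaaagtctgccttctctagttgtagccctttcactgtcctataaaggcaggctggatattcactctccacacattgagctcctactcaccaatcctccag

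The word starts 111 and 71 bases before the start in Defa21 and Defa22 and 141 bases before it in Defa30. A match of letters is a description and not a bound site.

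Levels summed over each library were compared first. The summed UMIs of the 9 genes were 13341 for WT, 144973 for LApc and 313554 for LApcL. Per 1e+06 UMIs this is 245 CPM (241 to 249) for WT, 1516 (1508 to 1524) for LApc and 3530 (3517 to 3542) for LApcL. The sum was higher in LApc than in WT by 2.62 on the log2 scale of CPM + 1 (2.60 to 2.65), and higher in LApcL than in LApc by 1.22 (1.21 to 1.23). Most alpha-defensins, Ang4 and Lyz1 were low in WT and higher in both Apc-targeted libraries, but the genes did not follow the sum alike.

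Lyz1 stood at 30.04 CPM for WT, 304 for LApc and 202 for LApcL. It was thus highest in LApc, and LApcL lay at -0.59 (-0.62 to -0.56) against it on the log2 scale. Defa24 stood at 61.6 CPM for WT, 316 for LApc and 1713 for LApcL. It was the member with the most UMIs in LApcL, at 152127, and LApcL exceeded LApc by a log2 ratio of 2.43 (2.42 to 2.45). Defa30, its closest relative by sequence, stood at 10.3, 68.7 and 323 CPM, with a ratio of 2.22 (2.18 to 2.26) for the same comparison. Defa17 stood at 0.826, 41.6 and 147 CPM, with a ratio of 1.79 (1.74 to 1.84).

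Defa21 and Defa22 were nearly absent from WT. Defa21 had 6 UMIs there, or 0.110 CPM (0.0404 to 0.240), and Defa22 had 2, or 0.0367 CPM (0.00445 to 0.133). In LApc they stood at 273 and 306 CPM, and in LApcL at 439 and 467 CPM. LApc exceeded WT by 7.95 (6.83 to 9.39) for Defa21 and 8.21 (6.37 to 11.25) for Defa22 on the log2 scale. From LApc to LApcL the ratios were 0.68 (0.66 to 0.70) for Defa21 and 0.61 (0.59 to 0.63) for Defa22, smaller than those of the Defa24 group.

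Ang4 stood at 3.87 CPM for WT, 68.7 for LApc and 161 for LApcL, and the ratio of LApcL against LApc was 1.22 (1.18 to 1.26). Itln1 went another way, with 138, 136 and 78.8 CPM. For LApc against WT the log2 ratio of Itln1 was -0.02 (-0.06 to 0.02), and it ran from -0.80 at a mitochondrial limit of 10% to 0.20 without that limit, so no direction is given. From LApc to LApcL it was -0.78 (-0.83 to -0.74). Mptx2 had 191 UMIs in LApc, or 2.00 CPM (1.72 to 2.30), and 0 UMIs in WT and in LApcL. A gene at 2.00 CPM can be missed in single barcodes, so the count of 0 UMIs limits the library's level, to 0.0551 CPM in WT and 0.0338 CPM in LApcL at 3 counts, and not the share of cells that express it.

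**Figure D1:**
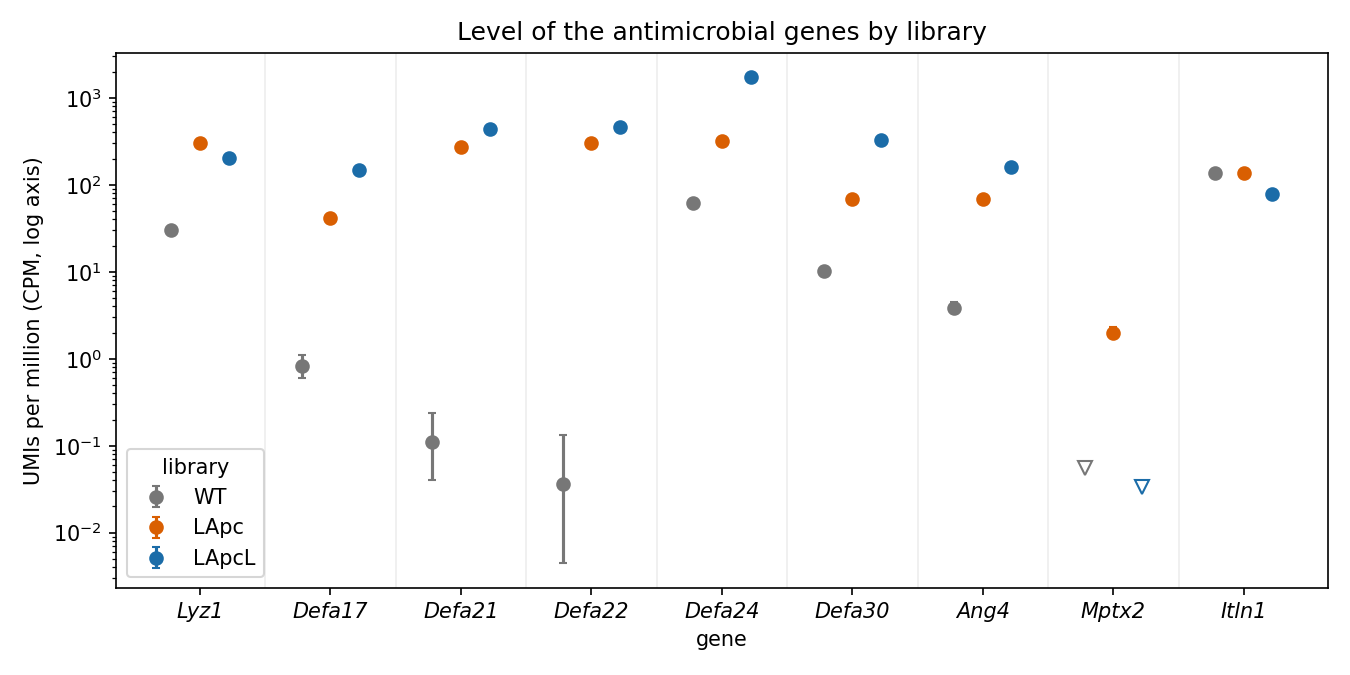
Level of each gene in the 3 libraries, in CPM on a log axis. Points are library sums with 95% Poisson intervals, which are mostly smaller than the points, and open triangles mark the level of 3 UMIs where none was found (Mptx2 in WT and LApcL). Defa21 and Defa22 have 6 and 2 UMIs in WT, and Itln1 lies between 78.8 and 138 CPM in all 3 libraries.

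Genes reaching 10 CPM in either library of a comparison served as background. Among the 8 members that reached it, 7 were higher in LApc than in WT by at least 1 on the log2 scale (2.0-fold), beside 22.4% of 9133 genes. Itln1 was the exception, and Mptx2 was below the limit of 10 CPM. Of the 7, Defa17, Defa21, Defa22 and Ang4 passed the limit only through LApc, where they were high, so for these 4 the call was largely set by the limit. None of the 8 was lower by that much, beside 10.3% of genes. The median log2 ratio was 3.57 for the 8 members and 0.45 for all genes tested. In LApcL against LApc, 4 of 8 members were higher by at least 1 (Defa17, Defa24, Defa30 and Ang4), beside 1.28% of 8762 genes, and none was lower by that much, beside 3.20%. The medians were 0.95 and 0.04. In LApcL against WT, 7 of 8 were higher, beside 24.6% of 9105 genes, and none was lower, beside 10.8%, with the same 4 genes passing only through LApcL. These comparisons share libraries and are not independent of each other.

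The counts lay in few barcodes. In LApc, 9 barcodes held 50% of the UMIs of the 9 genes, and in LApcL 17 barcodes did. For Defa30 in LApc it was 1 barcode, with 3600 of 6566 UMIs. Without it and without the richest Defa30 barcode of each of the other libraries, the log2 ratio of Defa30 was 2.02 for LApc against WT and 3.05 for LApcL against LApc. Lyz1 rested on 6 barcodes in LApc and 7 in LApcL for 50% of its UMIs, Defa24 on 4 and 18, and Defa21 on 5 and 10. In bulk terms a library's level joins the number of such cells with the RNA each held, so both were counted.

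A barcode was called member-rich where the 9 genes held at least 1% of its UMIs. This is a range of a level and not a cell type. In WT, 13 of 2567 barcodes were member-rich, a share of 0.506% (0.270 to 0.864). In LApc, 54 of 3272 were, or 1.65% (1.24 to 2.15), and in LApcL 99 of 3807 were, or 2.60% (2.12 to 3.16). The log2 ratio of the shares was 1.70 (0.81 to 2.70) for LApc against WT and 0.66 (0.16 to 1.16) for LApcL against LApc. Among deep barcodes, those with at least 10000 UMIs, the shares were 0.662% (8 of 1208), 2.13% (46 of 2161) and 3.88% (75 of 1931). Between 0.5% and 2.0%, near the limit, lay 14 barcodes for WT, 28 for LApc and 27 for LApcL. The lowest value inside the limit was 1.003% for WT, 1.01% for LApc and 1.05% for LApcL, and the highest outside was 0.946%, 0.975% and 0.961%.

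Within member-rich barcodes the 9 genes took a larger part of the cell in the Apc-targeted libraries. The median share of UMIs was 1.70% for WT, 4.96% for LApc and 9.44% for LApcL, and the highest was 22.4%, 52.3% and 56.0%. These barcodes held 46.9% of all UMIs of the 9 genes in WT, 91.0% in LApc and 97.6% in LApcL, while holding 0.521%, 1.49% and 2.63% of all UMIs. In each library 1 pair of member-rich barcodes had close to the same profile over genes with at least 20 UMIs. The number of genes compared was 64 (WT), 201 (LApc) and 309 (LApcL). The squared difference was 1.09 (WT), 1.56 (LApc) and 1.47 (LApcL) times the counting variance, against medians of 15.8, 23.4 and 21.1 over all pairs. The LApc pair, for example, had 312 and 453 Lyz1 UMIs, 273 and 368 Defa22 UMIs and 294 and 439 Itln1 UMIs, at totals of 12432 and 17816. Counted once, these pairs leave 12, 53 and 98 member-rich barcodes.

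**Figure D2:**
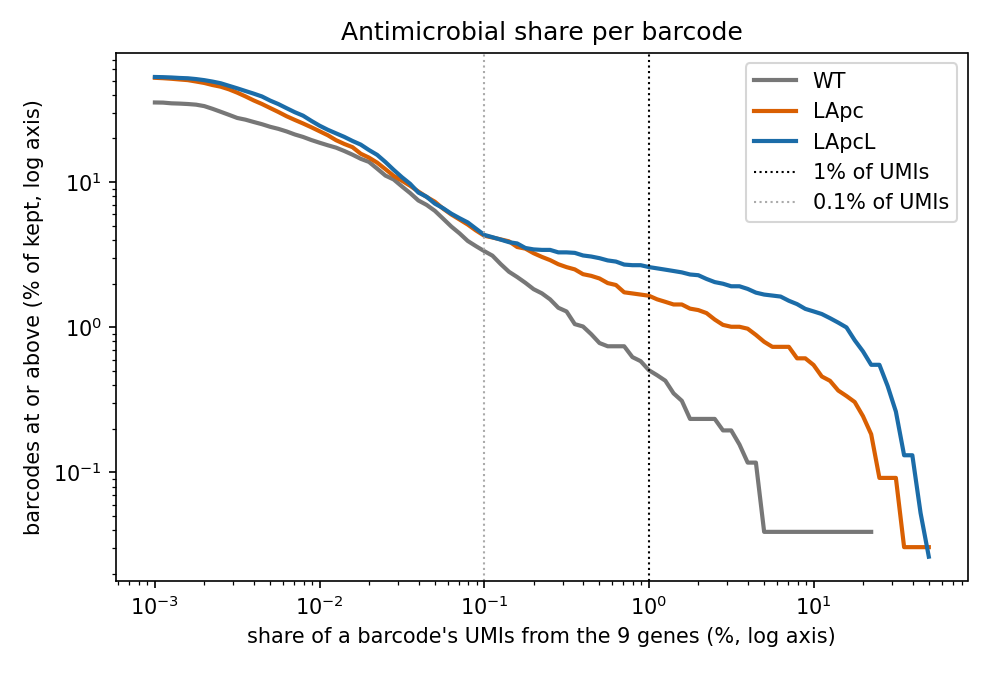
Share of kept barcodes (vertical, log axis) in which the 9 genes hold at least the percentage of UMIs on the horizontal log axis, for each library. WT lies lowest at 0.001%, at 35.4% against 52.4% for LApc and 53.1% for LApcL. The curves come close together near 0.1%, at 3.35%, 4.28% and 4.33%. They part above it, and at the limit of 1% they stand at 0.506% for WT, 1.65% for LApc and 2.60% for LApcL.

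To see whether a gene's UMIs lay in barcodes rich in the others, barcodes were chosen for each gene on the other 8 members. In LApc, 8 of 9 members had at least 50% of their UMIs inside such barcodes, from 61.6% for Itln1 to 97.6% for Defa30, beside 0.230% of 12597 other genes with at least 100 UMIs. The exception was Mptx2, at 0. In LApcL all 8 detected members did, from 83.8% for Itln1 to 98.6% for Defa22, beside 0.339% of 12098 other genes. In WT, 1 of the 5 members with at least 100 UMIs did, beside 0% of 11164 genes. It was Defa30 at 54.8%, followed by Defa24 at 44.7%, and Lyz1 lay at 10.02%, Ang4 at 12.8% and Itln1 at 12.3%. The median over members was 12.8% for WT, 86.2% for LApc and 95.9% for LApcL, against 0.542%, 1.30% and 1.99% for other genes. The Defa members are near copies of each other, so for them the other 8 are no independent choice. Defa21 and Defa22, at 86.1% and 86.2% in LApc, each had the other among these 8.

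The member-rich barcodes were then checked against marker lists. Over all genes other than the members with at least 10 UMIs, 12.8% were higher in member-rich barcodes by at least 1 on the log2 scale in WT, 5.85% in LApc and 4.93% in LApcL, and 19.9%, 9.44% and 11.2% were lower. Of 8 Paneth markers (Mmp7, Defa3, Defa5, Defa20, Defa23, Defa26, Clps and Habp2), all 8 were higher by at least 1 on the log2 scale in member-rich than in other barcodes in LApc and in LApcL. The summed level of the list was 8496 CPM against 383 CPM in LApc and 14331 against 727 CPM in LApcL. In WT only 3 of the 8 had at least 10 UMIs, 2 of them were higher, and Mmp7 had 0 UMIs in the 13 member-rich barcodes. In LApc 48 of 54 and in LApcL 98 of 99 member-rich barcodes held Mmp7, at 6064 and 9030 CPM. The protease was not confined to them, since 80.6% of its LApc UMIs lay elsewhere. Of the 8 markers, 5 are Defa genes that resemble the members used to choose the barcodes, so they are no independent check, and Mmp7, Clps and Habp2 are the 3 others. The goblet list (Muc2, Tff3, Agr2, Zg16, Fcgbp, Clca1 and Spink4) was present in the same barcodes at a higher sum, 11370 CPM for LApc and 18978 for LApcL, and 5 of 5 and 6 of 6 of its genes with at least 10 UMIs were higher than in other barcodes. Most of that sum came from Tff3 and Spink4, with 7699 and 7151 of 16157 UMIs in LApc and 23310 and 17414 of 44331 in LApcL. Agr2 stood at 572 and 1033 CPM, Muc2 at 241 and 373 CPM and Fcgbp at 106 and 134 CPM. Zg16 had 0 UMIs in the member-rich barcodes of both, and Clca1 had 0 and 8. The member-rich barcodes are therefore given no cell type name in any library.

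The 13 WT barcodes were led by Defa24 in 8 and by Itln1 in 5. In 8 of them the mucin gene Muc2 had at least 10 UMIs, and the goblet list as a whole stood at 48006 CPM against 1612 CPM in other barcodes. The goblet list ran from 0 to 162983 CPM over the 13 barcodes. The largest of them had 91741 UMIs, with 744 of Defa24, 379 of Lyz1 and 123 of Itln1 beside 1962 of Tff3, 984 of Spink4 and 149 of Muc2. Another kind carried Itln1 nearly alone. In 4 barcodes Itln1 made up over 90% of the UMIs of the 9 genes and Muc2 had at most 1, as in a barcode with 971 Itln1 UMIs of 35530, no Lyz1 and no Defa24. The barcode with the highest share, 22.4%, had 1582 UMIs, of which 155 were Defa24, 123 Defa30, 28 Itln1 and 27 Lyz1. In barcodes that were not member-rich the goblet list stood at 153 CPM in LApc and 149 CPM in LApcL. The part of the goblet markers in the difference between libraries was not tested.

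Inside member-rich barcodes the mix of genes differed between LApc and LApcL. Lyz1 stood at 19825 CPM (19594 to 20058) in LApc against 7410 CPM (7300 to 7521) in LApcL, and made up 21.4% and 5.66% of the UMIs of the 9 genes. Defa24 stood at 20538 and 63901 CPM, or 22.1% and 48.8%. Defa30 stood at 4510 and 12066 CPM, Defa17 at 2643 and 5384 CPM and Ang4 at 3887 and 5799 CPM. Defa21 was closer, at 16739 CPM (16527 to 16953) and 16405 CPM (16241 to 16570), as was Defa22 at 18642 and 17498 CPM. In LApc, 11 barcodes with hardly any other member, described below, held 14920 of the 23787 Defa21 UMIs. In the 35 other deep member-rich LApc barcodes, Defa21 stood at 8967 CPM and Defa22 at 11733 CPM. Lyz1 stood at 28347 CPM and Defa24 at 29101 CPM in these 35. Itln1 stood at 6034 and 2510 CPM. These are pooled over barcodes, so the counting intervals leave out the spread between cells.

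The leading gene differed too. Lyz1 led in 17 of 54 LApc barcodes and in 2 of 99 LApcL barcodes. Defa24 led in 14 of 54 and in 78 of 99, and it was found in 40 of the 54 LApc barcodes and in all 99 of LApcL. Over deep member-rich barcodes, Lyz1 had a lowest, median and highest count of 0, 187.5 and 2965 UMIs in LApc and of 0, 35 and 2095 in LApcL. Defa24 had 0, 54 and 5444 UMIs in LApc and 2, 1491 and 9120 in LApcL. The ranges overlap for both genes, while the medians lie in opposite order. Defa17 had medians of 1 and 130 UMIs, Defa30 of 7 and 86, Ang4 of 3.5 and 88, and Itln1 of 15 and 7. The LApc counts and medians include the 11 barcodes with Defa21 and Defa22 nearly alone.

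**Figure D3:**
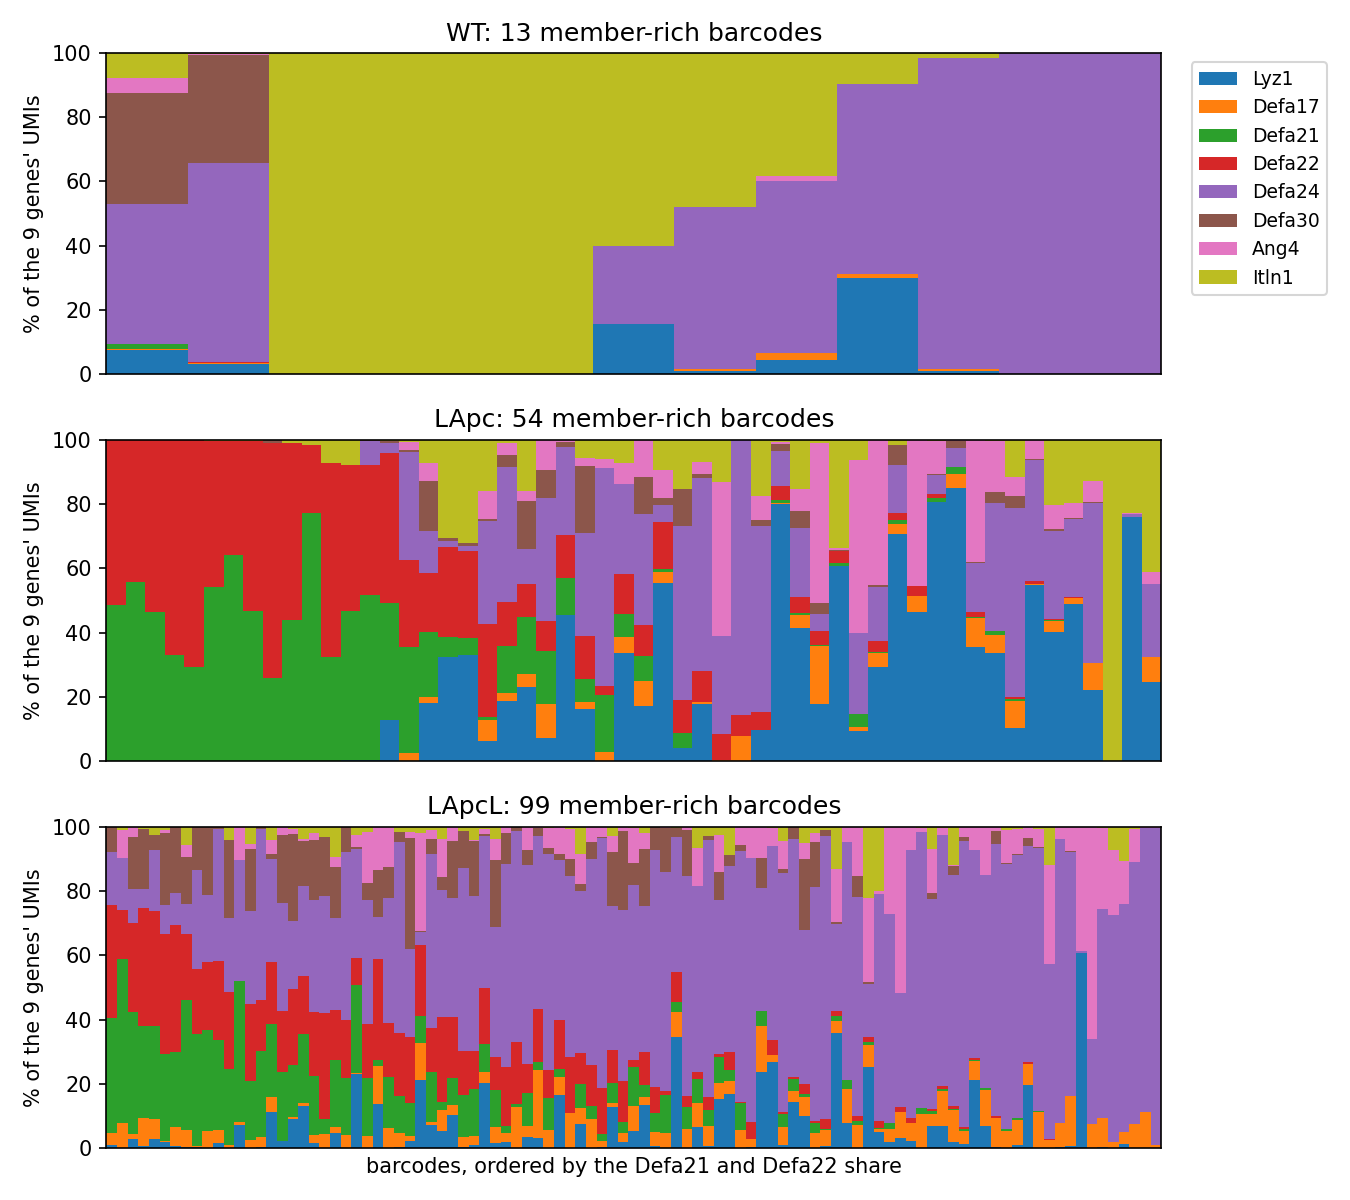
Make-up of each member-rich barcode, as the percentage of its antimicrobial UMIs from each gene (stacked bars, 1 bar per barcode), ordered by the share of Defa21 and Defa22. WT bars are mostly Defa24 or Itln1, the first LApc bars consist of Defa21 and Defa22 with little else, and Defa24 leads in 78 of the 99 LApcL bars.

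In LApc most UMIs of Defa21 and Defa22 lay in barcodes with hardly any other member. The pattern was noticed in the data and is given as a description. Of 44 deep LApc barcodes with at least 100 UMIs of the pair, 23 had at most 5% of their member UMIs from the other 7 genes. They made up 1.06% of the 2161 deep barcodes (0.676 to 1.59) and held 32431 UMIs of the pair, or 58.6% of all its UMIs in LApc and 22.4% of the LApc UMIs of the 9 genes. Of the 23, 11 were member-rich and 12 were not, with member shares of 0.238% to 0.890%. In LApcL, 53 deep barcodes had at least 100 UMIs of the pair and 0 of them had it alone, which allows a share of up to 0.155% of the 1931 deep barcodes at 3 counts. In WT no deep barcode reached 100 UMIs of the pair.

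The barcode with the most Defa21 had 3646 UMIs of Defa21 and 3861 of Defa22 among 56155, with no Lyz1, Defa17, Defa24, Defa30 or Ang4 and 4 UMIs of Itln1. Another had 3029 and 2534 of 26379, with 1 UMI each of Lyz1, Defa24 and Ang4. A further barcode had 1913 and 1517 of 15319, with 1 UMI of Lyz1 and none of Defa24. Over all 23, Lyz1 had 4 UMIs in total, Defa24 had 5, Defa17 had 1, Ang4 had 7 and Defa30 had 14. These low counts follow in part from the rule, which caps the other 7 genes.

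Genes that the rule did not use are given for the 11 barcodes that were member-rich, beside the 35 deep member-rich barcodes of LApc outside the pattern. Tff3, a trefoil peptide of goblet cells, had 2 UMIs in the 11 (4.85 CPM) against 7690 CPM in the 35, and Spink4 had 4 (9.71 CPM) against 7179 CPM. In the 2103 other deep barcodes of LApc, neither in the pattern nor member-rich, they stood at 90.5 and 13.5 CPM. Clps, Habp2, Defa3, Defa26 and Defa29 had 0 UMIs in the 11 and in the 12, against 1430, 204, 529, 308 and 94.2 CPM in the 35. These genes were thus at or near 0. Mmp7 stood at 602 CPM in the 11, where 1 barcode gave 135 of 248 UMIs, and 689 CPM in the 12, where 1 barcode gave 267 of 386 UMIs, against 8398 CPM in the 35 and 391 CPM in the 2103 other deep barcodes. It was found in 18 of the 23 and in 1785 of the 2103. Reg4 stood at 444 CPM in the 11, where 1 barcode gave 125 of 183 UMIs, and 154 CPM in the 12, where 1 gave 72 of 86, against 2750 CPM in the 35 and 12.5 CPM in the 2103. Further alpha-defensins were present. Defa5 stood at 444 CPM in the 11 against 419 CPM in the 35, Defa20 at 199 against 151 CPM, Defa32 at 221 against 96.2 CPM, Defa35 at 114 against 76.0 CPM and the defensin-like gene Gm15293 at 1781 against 1045 CPM. Defa36 was lower, at 214 against 2241 CPM, as was Defa34, at 26.7 against 446 CPM. In the 12 barcodes that were not member-rich, Defa5 stood at 64.3 CPM and Gm15293 at 373 CPM, against 0.214 and 0.742 CPM in the 2103. By transcript sequence, Defa20 and Defa32 were 90.8% and 90.6% identical to Defa21, while Defa3 was 92.8% identical to Defa24. Sequence did not sort all of these genes. Defa36 was 85.7% identical to Defa21 and 82.9% to Defa24, Gm15293 85.7% and 82.3%, Defa34 77.0% and 74.7%, and Defa5 76.6% and 74.3%. The neuropeptide gene Npy stood at 6807 CPM in the 11, where 1 barcode gave 1926 of 2805 UMIs, and at 2872 CPM in the 12, against 149 CPM in the 35 and 354 CPM in the 2103. It had at least 10 UMIs in 10 of the 23. Epcam was found in all 23.

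**Figure D4:**
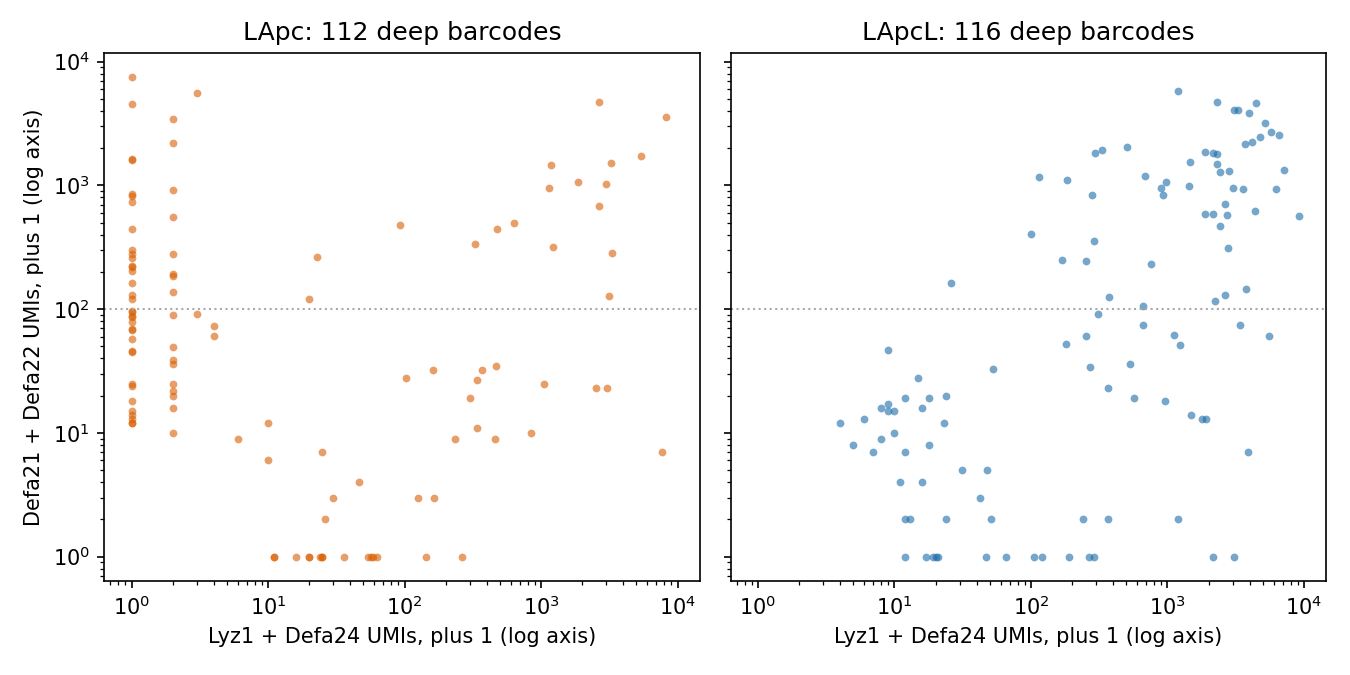
UMIs of Defa21 and Defa22 together (vertical) against UMIs of Lyz1 and Defa24 together (horizontal), each plus 1 on log axes, in deep barcodes with at least 10 UMIs of the 4 genes (112 in LApc, 116 in LApcL). Each point is a barcode and the dotted line marks 100 UMIs of the vertical pair. In LApc a column of points reaches 7507 UMIs of Defa21 and Defa22 at 0 to 2 UMIs of the other pair, and LApcL has no such column.

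Pairs of members were counted together in the deep member-rich barcodes, 46 in LApc and 75 in LApcL. Over the 28 pairs of the 8 members found there, the median Spearman correlation of CPM was 0.35 in LApc and 0.27 in LApcL. These correlations are across cells of 1 library that share their depth and, for the Defa genes, their sequence. The barcodes were also chosen on the sum of these genes, which by itself lowers the correlation between members. They are given as descriptions. Defa21 and Defa22 went together in both libraries, at 0.86 and 0.81. In LApc, Defa17, Defa24 and Ang4 went together, at 0.85 for Defa17 with Defa24 and 0.86 for Defa17 with Ang4, while Lyz1 with Defa21 was the lowest pair, at -0.22. In LApc 15 barcodes had at least 100 UMIs of Defa21 and under 5 of Lyz1, 8 had the reverse and 7 had at least 100 of both.

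In LApcL, all 12 pairs of Defa21 or Defa22 with another member had a higher correlation than in LApc, with medians of 0.32 and -0.11, and all 15 pairs without these genes had a lower one, with medians of 0.24 and 0.67. Of the 46 LApc barcodes, 11 are the ones with Defa21 and Defa22 alone described above, which enter these counts. Without them, 8 of the 12 pairs were higher in LApcL and 4 lower, with medians of 0.32 in LApcL and 0.27 in LApc, and all 15 others were lower, with medians of 0.24 and 0.52. With all 46 LApc barcodes, Defa17 with Defa24 was at 0.67 in LApcL and Lyz1 with Defa24 at 0.19, against 0.85 and 0.67 in LApc. On the same barcodes, the 11 included, Defa30 with Defa22 went from 0.06 in LApc to 0.78 in LApcL. Defa21 with Defa30 went from 0.03 to 0.71. Defa30 with Defa24, its closest relative by sequence, went from 0.76 to 0.40. The part of sequence in these values was not tested. Defa21 took between 3.26% and 78.4% of the sum of Defa21 and Defa22 in LApc barcodes with at least 100 UMIs of the pair, with a median of 44.8%. In LApcL it took between 0.342% and 99.6%, with a median of 49.1%, so the split between these near copies varied from cell to cell.

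Detection was compared at equal depth by thinning each barcode to 1000 UMIs. After thinning, at least 1 UMI of any member was found in 8.06% of WT barcodes (7.04 to 9.19), 10.3% of LApc barcodes (9.31 to 11.4) and 10.5% of LApcL barcodes (9.58 to 11.6), and unthinned in 35.5%, 52.8% and 53.4%. Defa24 was found in 2.14%, 2.51% and 6.57%, and Lyz1 in 1.56%, 2.11% and 2.23%. Itln1 was found in 4.32%, 4.401% and 2.101%. Within member-rich barcodes, Defa24 was found after thinning in 36 of 54 in LApc and 98 of 99 in LApcL, and Defa17 in 25 of 54 and 83 of 99. Lyz1 was found in 35 of 54 and 62 of 99, and its intervals overlap.

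The level outside the richest cells was much lower. In all barcodes that were not member-rich the 9 genes summed to 131 CPM for WT, 139 for LApc and 88.1 for LApcL. In barcodes with under 0.1% of UMIs from the 9 genes, their sum stood at 58.6 CPM in WT (56.5 to 60.7), 61.3 CPM in LApc (59.7 to 62.9) and 57.2 CPM in LApcL (55.6 to 58.8), although the whole libraries ranged from 245 to 3530 CPM. The limit itself caps this value. In shared barcodes, which carried Pecam1 and little Epcam, the sum stood at 2.12 CPM in WT (17 UMIs), 15.0 CPM in LApc (81 UMIs) and 14.4 CPM in LApcL (84 UMIs), leaving out 1 LApcL barcode. Median depth there was 2395, 1905 and 1990 UMIs.

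For single genes the low barcodes did not have the mix of the rich ones. In LApc, Itln1 made up 55.7% of the member UMIs of the low barcodes and 6.50% of those of the rich barcodes, and Lyz1 7.15% and 21.4%. Itln1 had up to 52 UMIs in a low LApc barcode, whereas Lyz1 had up to 18 and Defa24 up to 23. In LApcL the low barcodes were closer to the rich ones, with 37.9% against 48.8% for Defa24, 7.09% against 12.5% for Defa21 and 5.35% against 5.66% for Lyz1, and again more Itln1, at 21.3% against 1.92%. In LApcL, Defa24 was found in 30.7% of low barcodes at 21.7 CPM, and in 1.54% of shared barcodes at 6.83 CPM. At 1000 UMIs it was found in 3.67% of barcodes that were not member-rich and in 0.708% of shared barcodes. In WT, Itln1 stood at 32.6 CPM and Lyz1 at 14.4 CPM in low barcodes, against 0.250 and 1.25 CPM in shared ones. The part that free RNA had in these levels was not tested.

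**Figure D5:**
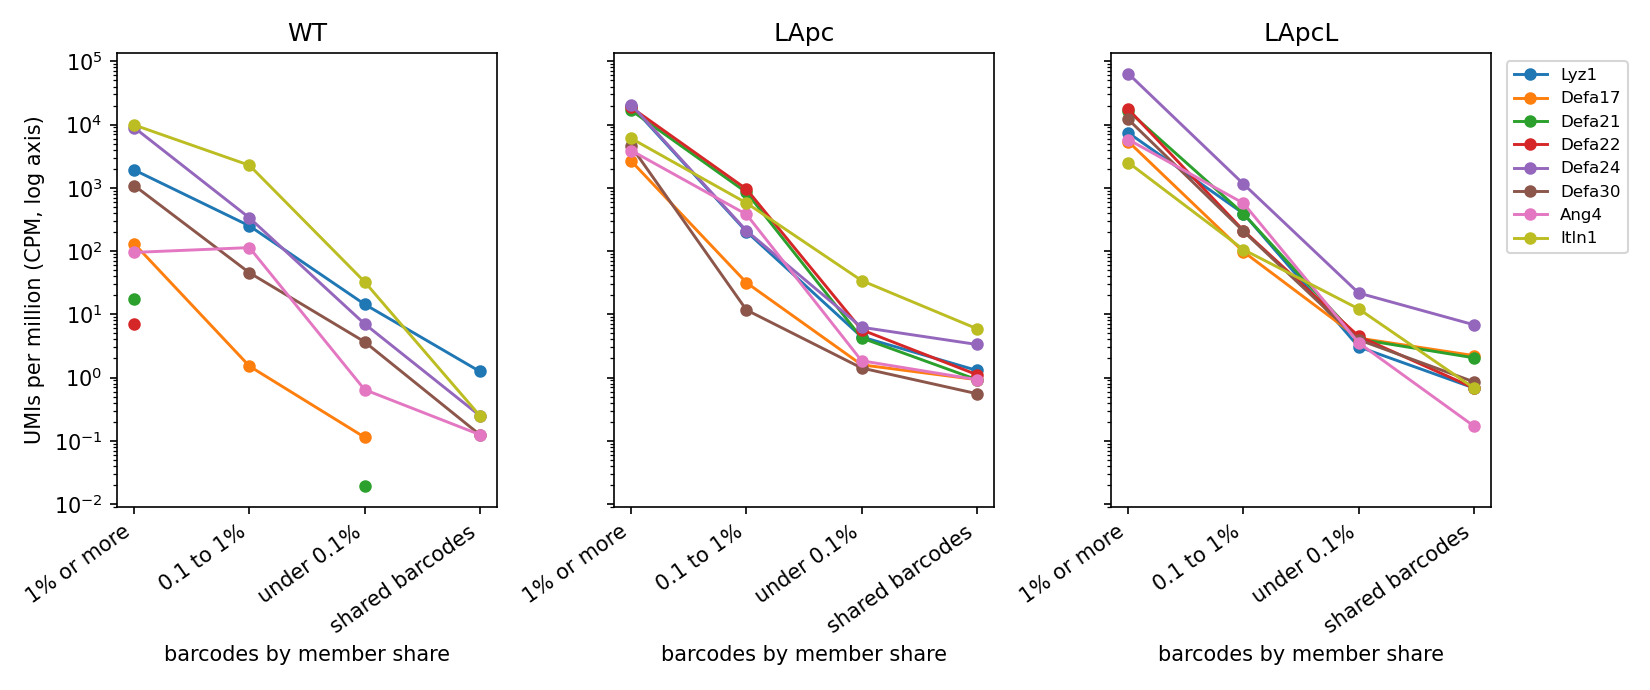
Level of 8 of the genes (CPM, log axis) in barcodes with at least 1%, 0.1 to 1% and under 0.1% of UMIs from the 9 genes, and in shared barcodes that are not member-rich, by library. Groups with no UMI of a gene have no point. In the low barcodes Itln1 is the highest of the 8 in LApc, at 34.1 CPM, and Defa24 is the highest in LApcL, at 21.7 CPM.

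Mptx2 stood apart from the other 8 genes. It was found in 26 LApc barcodes, and 0 of them were member-rich. Of the 26, 25 were deep, the median was 47519 UMIs, and 15 of the 25 deep ones had at least 10 UMIs of Npy, which 152 of all 2161 deep LApc barcodes had. Those 15 held 151 of the 191 Mptx2 UMIs. The barcode with the most had 60 UMIs of Mptx2 and 1722 of Npy among 99166, with 2 of Defa21, 3 of Defa22 and no Lyz1.

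Of the fixed list of 27 other antimicrobial genes, 26 were found, of which 17 are Defa genes. In WT, 4 of 9 with at least 10 UMIs were higher in member-rich barcodes and 2 were lower, beside 12.8% and 19.9% of all genes. In LApcL, 16 of the 20 with at least 10 UMIs were higher in member-rich barcodes by at least 1 on the log2 scale and 3 were lower, and in LApc 16 of 19 were higher and none was lower, beside 4.93% and 5.85% of all genes higher and 11.2% and 9.44% lower. In each, 12 of the 16 were Defa genes, which resemble the members used to choose the barcodes and are no independent check. The 4 others were Ang, Lyz2, Mmp7 and Reg4 in both libraries, and Ang and Lyz2 are themselves paralogs of Ang4 and Lyz1. The Reg3 genes, which encode antibacterial lectins, were lower in member-rich barcodes in LApcL. There, Reg3b stood at 137 CPM in member-rich barcodes and 1514 CPM in others, and Reg3g at 49.7 and 271 CPM, so 99.8% of Reg3b UMIs lay elsewhere. In LApc the difference was below the limit, with Reg3b at 407 against 784 CPM and Reg3g at 23.2 against 45.8 CPM. In WT, Reg3b and Reg3a were lower in member-rich barcodes, at 3.53 against 17.2 CPM and 0 against 33.2 CPM. There, Reg3g was higher in member-rich barcodes, at 24.7 against 9.10 CPM, from 7 UMIs. Reg4 lay with the members, at 1477 against 6.19 CPM in LApcL and 2056 against 12.8 CPM in LApc. Between libraries, 10 of the 20 genes on this list with at least 10 UMIs were higher in LApcL than in LApc and none was lower, with a median log2 ratio of 0.97, beside 1.29% of all genes higher and 3.82% lower. For LApc against WT, 13 of 20 were higher and 2 lower, beside 18.2% and 8.49%.

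Of 7 factors of secretory fate, 7 were higher in member-rich barcodes by at least 1 on the log2 scale in WT, 5 in LApc and 6 in LApcL, beside the 12.8%, 5.85% and 4.93% of all genes given above. Spdef, a factor of secretory maturation, stood at 44.1 against 0.590 CPM in LApcL and 26.0 against 0.255 CPM in LApc. Atoh1, which sets the secretory lineage, stood at 27.4 against 1.05 CPM and 11.3 against 0.711 CPM. Of 10 niche and surface genes of Paneth cells, 7 were higher in WT and 6 in each of the mutants. Wnt3, the Wnt ligand that Paneth cells give to stem cells, stood at 88.2 against 0.879 CPM in LApcL and 90.1 against 0.892 CPM in LApc, and at 31.7 against 1.68 CPM in WT. In LApcL and LApc 73.0% and 60.4% of its UMIs lay in member-rich barcodes. Between LApc and LApcL as whole libraries, none of the 7 fate factors and none of the 10 niche genes was higher by at least 1, and 1 niche gene was lower, beside 1.29% of all genes higher and 3.82% lower.

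Markers of other cell types were checked in the same way. The stem cell list stood at 1025 CPM in member-rich LApcL barcodes and 1232 CPM in others, and at 469 and 662 CPM in LApc. The proliferation list was lower, at 430 against 928 CPM in LApcL and 159 against 647 CPM in LApc, with 4 of 5 genes lower in each. In WT the stem list stood at 2623 against 370 CPM and the enterocyte list at 508 against 19550 CPM. Enterocyte markers were near 0 in both mutants, at 2.57 and 7.74 CPM in member-rich barcodes, and tuft markers stood at 0 and 14.1 CPM. Endothelial and macrophage lists stood at 4.28 to 27.4 CPM in the mutants and at 0 and 3.53 CPM in WT. Of the endothelial genes, 1 was higher in member-rich barcodes and 1 lower in each mutant. The higher one was Pecam1, at 9.15 against 1.44 CPM in LApc and 17.6 against 0.590 CPM in LApcL. Of the enteroendocrine list, Sct, which encodes secretin, gave 1155 of the 1208 UMIs in member-rich LApc barcodes and all 634 in LApcL. It stood at 813 against 11.8 CPM in LApc and 271 against 15.8 CPM in LApcL. The 4 other genes of the list had 0 UMIs in member-rich LApcL barcodes. In LApc, Neurod1 had 22 UMIs there (15.5 against 0.0318 CPM), Chgb 24 (16.9 against 10.6 CPM), Chga 7 and Cck 0. Of the pancreatic exocrine list, Cela1 gave 104 of 105 UMIs in LApc and all 65 in LApcL, and Ctrb1, Prss2 and Cpa1 had 0 in both.

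The genes most like the members were those with the largest share of UMIs in member-rich barcodes, by the lower of the LApc and LApcL shares, among 11885 genes with at least 100 UMIs in both. The first 10 were Gm14851 (99.2%), Defa27 (98.8%), AY761184 (98.4%), Defa23 (98.2%), Defa3 (98.0%), Defa26 (96.5%), Defa29 (96.4%), Defa36 (95.4%), Clps (92.9%) and Defa5 (91.5%). Clps, which encodes the pancreatic lipase cofactor colipase, was the only one of the 10 that is neither a Defa gene nor a gene named by a clone or locus number. It stood at 6.96 CPM for WT, 16.0 for LApc and 81.4 for LApcL, which differ by 2.28 (2.20 to 2.36) on the log2 scale. Defa29 changed more, from 1.16 to 34.9 CPM, with a ratio of 4.05 (3.79 to 4.33), and Defa36 went from 25.5 to 141 CPM, with a ratio of 2.42 (2.36 to 2.48). All 228 LApc UMIs of Gm14851 lay in deep member-rich barcodes and came from 1 barcode.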

How the data were processed

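The deposited files hold whole-number UMI counts per gene and barcode for 3 libraries, which the authors made from 10x Chromium 3′ reads on mm10 without normalization. Per the file headers the counts came from Cell Ranger 6.0.1, while the study's methods name 2.1.1. Barcodes were kept as described above, which left 54460397, 95625630 and 88832931 UMIs in WT, LApc and LApcL. No doublets were removed in the main values. Scrublet in scanpy 1.11.5 scored them for an alternative, and its automatic limit marked 1, 0 and 0. CPM is a count per 1e+06 UMIs. Log2 ratios are of CPM + 1, so they understate low genes. Since 3′ libraries count 1 tag per molecule, levels were not divided by length. Intervals are exact at 95% (Poisson, Clopper-Pearson and conditional binomial), computed with scipy 1.17.1 and checked on simulated counts. The limit given for a count of 0 is 3 counts of the library's UMIs or of the barcodes. Thinning used seed 1. Named genes were the 9 members, the fixed lists and the 10 most similar genes. Npy, Lef1, Epcam and the genes described in the Defa21 and Defa22 barcodes outside those lists were chosen after their values were seen. The members and lists were chosen with earlier results of these data known. Alternatives were other limits on UMIs, mitochondrial share and genes detected, shared barcodes, doublet scores, scaling, pseudocount and the member-rich limit.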

Additional observations from a re-analysis of the deposited data

Results flagged for a closer look

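The shared barcodes and those over the mitochondrial limit were outside the main comparisons, and both held more of the 9 genes in the mutants than in WT. In shared barcodes the summed level was 2.12 CPM for WT, 15.0 for LApc and 1625 for LApcL. Of the 9563 member UMIs behind the LApcL value, 9479 came from 1 barcode that occurred in 2 libraries. It had 31851 UMIs, of which the 9 genes held 29.8%, with 3147 of Defa24, 1859 of Defa21 and 735 of Lyz1. Without it the LApcL value was 14.4 CPM. In barcodes with over 20% mitochondrial UMIs the level was 73.8 CPM for WT, 179 for LApc and 394 for LApcL, and 0, 12 and 26 of them were member-rich. No explanation was tested for these values.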

How the results depend on the processing

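The log2 ratio of the summed level stayed positive in both comparisons under all settings run. For LApc against WT (2.62) it was 1.94 at a mitochondrial limit of 10%, 2.76 without that limit, 2.70 in deep barcodes, 2.74 with shared barcodes, 2.91 without the top and bottom 1% by genes detected, 2.66 without the highest doublet scores, 2.28 with median-of-ratios scaling, 2.56 with totals without mitochondrial genes, 2.58 at a pseudocount of 10 CPM, 2.58 without the richest barcode and 3.68 without Itln1, the last 2 chosen after seeing the data. For LApcL against LApc (1.22) the same settings gave 1.20, 1.21, 1.26, 1.25, 1.26, 1.20, 1.26, 1.23, 1.21, 1.33 and 1.32. The share of member-rich barcodes stayed higher in both comparisons. With at least 4 members found after thinning as the rule, its log2 ratios were 3.11 and 1.23, and from 0.3% of UMIs they were 0.99 and 0.32 (-0.09 to 0.73).

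The level outside member-rich barcodes had no stable direction for LApc against WT. Its log2 ratio was 0.09, and it turned to -0.54 at a mitochondrial limit of 10% and to -0.26 with median-of-ratios scaling. It was 0.20 without a mitochondrial limit, 0.13 in deep barcodes, 0.21 with shared barcodes, 0.26 without the 1% tails, 0.034 without the highest doublet scores, 0.021 with totals without mitochondrial genes and 0.22 with member-rich from 3%. For LApcL against LApc (-0.65) it was -0.81 at 10%, -0.41 without the limit, -0.60 from 500 UMIs, -0.75 in deep barcodes, -0.55 without the 1% tails, -0.59 without the highest doublet scores, -0.61 with median-of-ratios scaling, -0.43 with member-rich from 0.3%, -0.12 from 3% and -0.10 in barcodes under 0.1%, the last chosen after seeing the data. The cause was not tested.

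Of 232 ratios of single members under these settings, 126 stayed within their counting interval, 106 moved and 0 called ratios reversed. The share of all genes higher in LApc than in WT was 13.1% with no minimum on CPM. No paired analysis was possible because each genotype has 1 library.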
